A study of Mus musculus with 20 samples.

Results

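Mroh4, D030018L15Rik, G6pc2, C2cd4a, Cacna1i and Adam7 are 6 of the 43472 genes counted in mouse ventral prostate by bulk RNA sequencing. They were taken by name from earlier results on the same libraries, as genes close to absent after castration and vehicle and far higher after testosterone in at least 1 genotype. Their testosterone responses are therefore given as a description with no test. All 6 passed the filter on low values, a level of 10 normalized counts reached in 5 or more of 20 libraries, as did 15261 genes in all.

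Every male had been orchidectomised, which removes the testes and their androgen, and was then treated for 4 days. The 4 groups of 5 libraries were wild type C57BL/6J with vehicle, wild type with testosterone, ARNoC/Y with vehicle and ARNoC/Y with testosterone, called WT and ARNoC here. ARNoC/Y males carry, on their single X chromosome, an androgen receptor allele that abolishes the contact between the amino-terminal and carboxyl-terminal parts of the receptor, so both ARNoC groups share that allele. The sources used here give no ages, doses or number of animals per library, so each p-value rests on the spread among libraries, which may be technical.

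The androgen receptor binds testosterone or dihydrotestosterone, enters the nucleus and binds DNA as a pair of receptors at androgen response elements. Castration makes the prostate epithelium shrink and lose its secretory programme, and androgen brings both back within days. In some receptor pairs the amino-terminal end of the receptor folds onto its hormone-binding domain, and this contact matters more at some target genes than at others.

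The libraries held 8861646 to 21600352 counts. The ventral prostate markers were present throughout, and all 8 of them had counts. The androgen-responsive genes chosen as a check changed with testosterone: in WT 10 of 15 rose and 5 fell, and ARNoC had 9 higher and 3 lower. Over all genes 20.4% rose and 18.8% fell in WT, and 19.4% rose and 16.8% fell in ARNoC. These 15 were listed with earlier results of these data known, so their counts are a description and no independent check. Fkbp5, which encodes a receptor cochaperone, rose by a log2 change of 2.46 in WT and 2.50 in ARNoC by edgeR's quasi-likelihood test. The tissue is a mixture, so more cells of a type and more RNA per cell cannot be told apart for any gene below.

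Of the 6 genes, 3 lie on chromosome 15 of build mm10 in the GENCODE M21 annotation, and no annotated gene overlaps any of the 6. Mroh4 (ENSMUSG00000022603.9) spans chr15:74606029-74636353 on the minus strand, D030018L15Rik (ENSMUSG00000078925.11) spans chr15:96051603-96079553 on the minus strand, and Cacna1i (ENSMUSG00000022416.15) spans chr15:80287238-80398279 on the plus strand. G6pc2 (ENSMUSG00000005232.11) lies at chr2:69211073-69227841 on the plus strand. C2cd4a (ENSMUSG00000047990.6) lies at chr9:67830489-67832330 and Adam7 (ENSMUSG00000022056.9) at chr14:68497336-68533741, both on the minus strand. D030018L15Rik is a long intergenic noncoding RNA in GENCODE and a transcribed pseudogene in RefSeq, so reads of a similar gene could be counted in it and its level is uncertain. The other 5 are protein coding.

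The promoter table from RefSeq (GRCm38.p6, the same assembly as mm10) held 3 of the 6 genes. Their upstream sequences are shown as a description, and C2cd4b is shown as the neighbour and relative of C2cd4a. Each line gives the 250 bases before the gene start, 5′ to 3′ on the strand of the gene. Capitals mark AGAACA, the androgen response hexamer, or TATAAA, the motif of a TATA box.
G6pc2, chr2:69210823-69211072, plus strand: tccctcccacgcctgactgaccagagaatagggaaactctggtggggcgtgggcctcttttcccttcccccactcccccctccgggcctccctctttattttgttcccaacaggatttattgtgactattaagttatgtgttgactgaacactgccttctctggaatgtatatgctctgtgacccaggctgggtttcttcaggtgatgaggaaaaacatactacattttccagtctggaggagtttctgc
C2cd4a, chr9:67832331-67832580, minus strand: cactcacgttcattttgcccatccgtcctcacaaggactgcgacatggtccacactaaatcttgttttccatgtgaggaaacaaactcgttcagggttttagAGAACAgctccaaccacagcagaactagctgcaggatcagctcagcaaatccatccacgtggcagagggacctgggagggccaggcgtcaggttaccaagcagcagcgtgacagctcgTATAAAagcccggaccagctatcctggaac
Cacna1i, chr15:80286988-80287237, plus strand: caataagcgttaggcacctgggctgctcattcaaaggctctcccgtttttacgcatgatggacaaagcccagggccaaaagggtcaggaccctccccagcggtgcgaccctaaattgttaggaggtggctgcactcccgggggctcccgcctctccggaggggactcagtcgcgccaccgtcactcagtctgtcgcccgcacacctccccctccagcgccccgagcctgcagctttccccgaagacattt
C2cd4b, chr9:67759187-67759436, plus strand: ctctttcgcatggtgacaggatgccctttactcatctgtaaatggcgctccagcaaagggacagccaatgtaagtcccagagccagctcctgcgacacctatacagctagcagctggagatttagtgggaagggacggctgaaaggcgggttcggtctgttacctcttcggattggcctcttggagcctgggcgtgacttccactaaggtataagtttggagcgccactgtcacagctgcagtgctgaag
The search covered both strands of a window of 300 bases, which adds the first 50 bases of the gene. C2cd4a had 1 hexamer, starting at position -148 from the gene start, and 1 TATA box at position -30. The windows of G6pc2, Cacna1i and C2cd4b held neither, and a further annotated start of G6pc2 held neither. Among 32851 promoter windows of the same length, 19.0% held AGAACA and 13.6% held TATAAA. The full palindrome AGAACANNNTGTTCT, which pairs the hexamer with its reverse complement, stood in 3 of those windows and in none of these. A match is a run of letters, and receptor binding was not measured.

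Mroh4 encodes a protein of the maestro heat-like repeat family, whose role in the prostate is not known. In WT with vehicle it had 0 counts in all 5 libraries. With testosterone the WT libraries read 103, 82.5, 72.9, 63.4 and 52.4 normalized counts (mean 74.9 ± 19.4, SD, n = 5). In ARNoC with vehicle 4 libraries were at 0 and 1 held 3 counts. With testosterone the ARNoC libraries read 47.8, 72.6, 130, 101 and 66.5 (mean 83.5 ± 32.2). Both testosterone groups lay wholly above both vehicle groups. Against a floor of 3 counts over the vehicle group, Mroh4 was at least 127-fold higher with testosterone in WT. In ARNoC the ratio of summed counts, scaled for library size, was 181 with a 95% exact interval of 61.4 to 879, which covers counting error only. Without vehicle library 2, which held the 3 counts, it was at least 132-fold.

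D030018L15Rik has no protein product to name, and its mean level per kilobase of exon was the highest of the 6 with testosterone. With vehicle the WT libraries read 12.4, 8.79, 12.4, 25.01 and 2.13 normalized counts (12.1 ± 8.33). With testosterone they read 1466, 1042, 1494, 1150 and 1493 (1329 ± 216). The WT groups were separated by more than an order of magnitude, and the ratio of means was 109. In ARNoC with vehicle the libraries read 30.2, 77.9, 49.4, 42.9 and 102 (60.4 ± 29.0). With testosterone they read 3027, 2017, 807, 2097 and 2999 (2189 ± 909). The ARNoC groups did not overlap either, and the ratio of means was 36.2. D030018L15Rik goes against the description of the 6 genes in 1 respect: it was low but present in every vehicle library, and per kilobase of exon its ARNoC vehicle libraries lay above those of the other 5 genes.

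G6pc2 encodes the glucose-6-phosphatase catalytic subunit best known from pancreatic beta cells, where it removes phosphate from glucose-6-phosphate inside the endoplasmic reticulum. It had 0 counts in all 5 WT vehicle libraries. With testosterone the WT libraries read 12.3, 36.5, 10.9, 16.4 and 61.6 normalized counts (27.5 ± 21.6). In ARNoC with vehicle 1 library held 4 counts and the other 4 were at 0. With testosterone the ARNoC libraries read 94.6, 89.0, 38.6, 43.2 and 99.7 (73.0 ± 29.6). G6pc2 was at least 46.9-fold higher with testosterone in WT, and the ratio of summed counts in ARNoC was 108, with a 95% exact interval of 42.0 to 400.3 for counting error. Without ARNoC vehicle library 1, which held all 4 vehicle counts, G6pc2 was at least 120.02-fold higher there. Libraries of both testosterone groups overlapped, with WT library 5 above ARNoC libraries 3 and 4.

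C2cd4a encodes a small C2-domain protein of the nucleus, known from endothelial and pancreatic beta cells. With vehicle the WT libraries read 1.03, 9.88, 6.63, 10.2 and 8.52 normalized counts (7.25 ± 3.75), and with testosterone 522, 370, 320, 426 and 312 (390 ± 86.9). In ARNoC the vehicle libraries read 5.03, 1.90, 4.56, 4.18 and 7.41 (4.62 ± 1.97), and the testosterone libraries 138, 342, 272, 316 and 215 (256 ± 81.8). C2cd4a was thus present at a few counts in every vehicle library. The ratios of means were close, 53.8 in WT and 55.5 in ARNoC.

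Cacna1i encodes the pore subunit of a T-type calcium channel, which opens at low voltage and is best known from neurons. With vehicle the WT libraries read 9.30, 20.9, 2.49, 1.85 and 0 normalized counts (6.90 ± 8.56), and with testosterone 16.9, 53.0, 27.9, 34.1 and 20.8 (30.6 ± 14.2). These WT groups overlapped through vehicle library 2. The ratio of WT means was 4.43, and 8.96 without that library. In ARNoC the vehicle libraries read 5.75, 1.90, 1.52, 1.05 and 0 (2.04 ± 2.19), and the testosterone libraries 92.5, 157, 203, 198 and 144 (159 ± 45.0). The ARNoC groups were far apart, with a ratio of means of 77.7, and of 142 without vehicle library 1.

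Adam7 encodes a metalloprotease-family protein without protease activity that the epididymis releases onto sperm. It had 0 counts in all WT vehicle libraries, and with testosterone the WT libraries read 13.9, 14.1, 14.0, 68.1 and 1.66 normalized counts (22.4 ± 26.1). In ARNoC with vehicle 1 library held 2 counts. With testosterone the ARNoC libraries read 333, 534, 2649, 155 and 140 (762 ± 1067, median 333). ARNoC library 3 set that mean and SD. Adam7 was at least 38.0-fold higher with testosterone in WT, and at least 18.6-fold without library 4. In ARNoC the ratio of summed counts was 2088, with a 95% exact interval of 577 to 17245 for counting error. It was 841 (232 to 6951) without testosterone library 3. Without vehicle library 1, which held both vehicle counts, the fold was at least 1253.

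**Figure D1:**
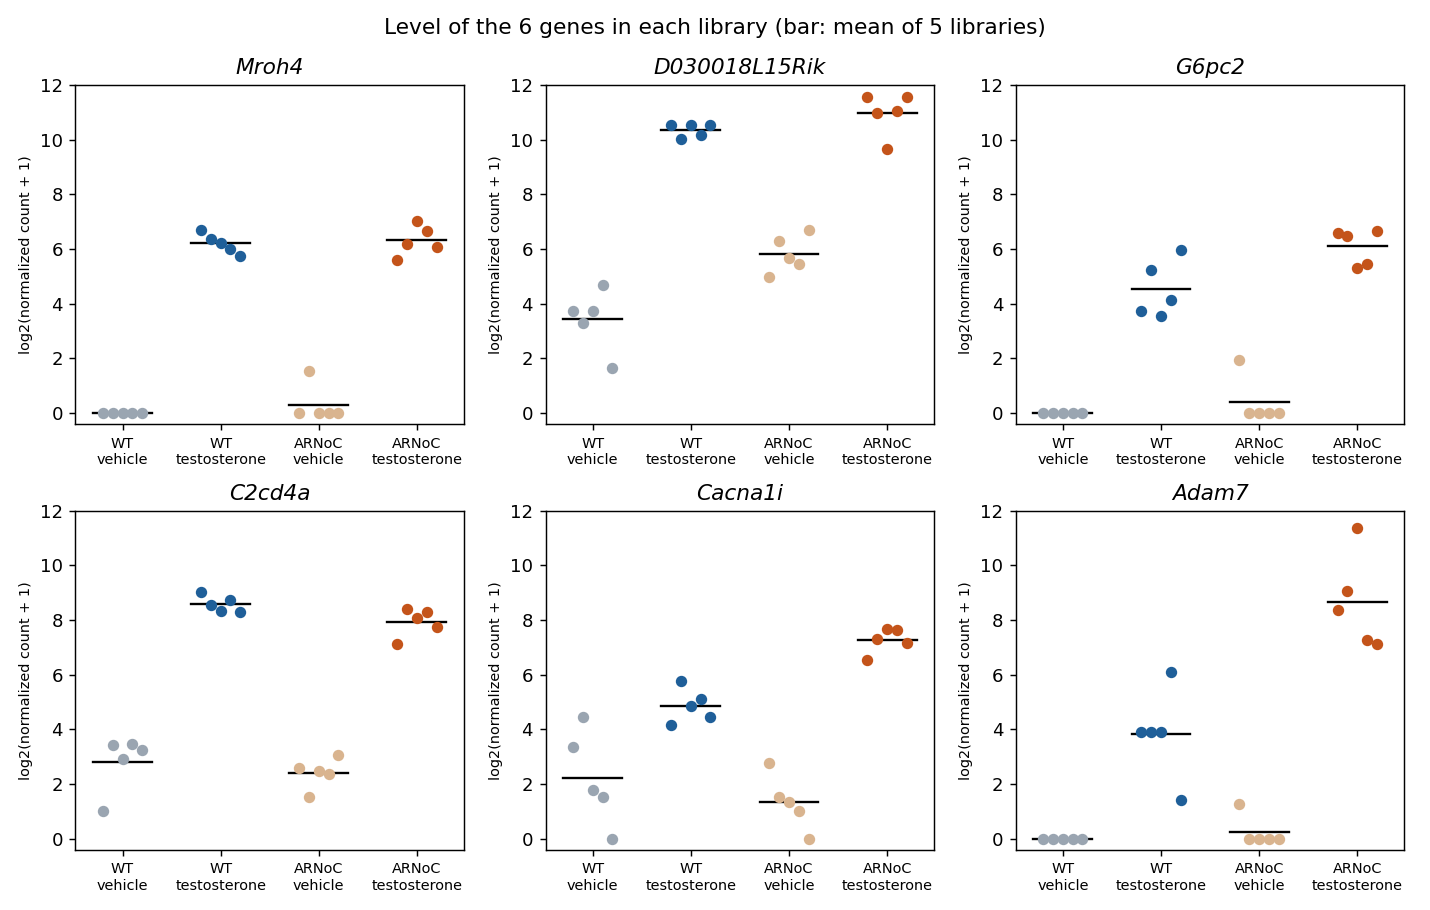
Level of each of the 6 genes in all 20 libraries, on the scale log2(normalized count + 1), by group (horizontal axis); points are libraries 1 to 5 from left to right and bars are means of the log2 values. Every testosterone library lies above every vehicle library of its genotype, except for Cacna1i in WT, and Adam7 in ARNoC spreads from 140 to 2649 normalized counts.

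Libraries of testosterone and vehicle did not overlap for 5 of the 6 genes in WT and for all 6 in ARNoC. For Adam7 in WT that rests on 2 raw counts in testosterone library 5, against 0 in the vehicle libraries. Among all 15261 genes, 15.2% rose without overlap in WT and 12.4% in ARNoC. By edgeR's quasi-likelihood test 20.4% were called higher and 18.8% lower in WT, and 19.4% higher and 16.8% lower in ARNoC. Since the 6 were chosen on this comparison, nothing is read from that contrast of shares. A pair of limits placed them among like genes. In WT 23 genes of the table went from a mean below 10 normalized counts to a mean of 50 or more, and in ARNoC 30 did. Those 23 held Mroh4 and C2cd4a, and those 30 held Mroh4, G6pc2, C2cd4a, Cacna1i and Adam7. The genes common to both numbered 13, which is 56.5% of the WT list and 43.3% of the ARNoC list. These shares rest on fixed limits, which some of the remaining genes missed narrowly. C2cd4b, on the WT list, reached 48.7 in ARNoC with testosterone. Kel, on the ARNoC list, went from 12.8 to 392 in WT. Adam7 and Cacna1i missed by more, reaching 22.4 and 30.6 in WT. The shares therefore do not count genes that respond in a single genotype. D030018L15Rik met the limits in neither genotype, with vehicle means of 12.1 and 60.4. The reverse change, from at least 50 with vehicle to below 10 with testosterone, was met by 18 genes in each genotype.

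Levels of different genes can be compared per kilobase of exon. In WT with testosterone the order ran from D030018L15Rik at 301 ± 49.1 and C2cd4a at 280 ± 62.3 normalized counts per kb to Mroh4 at 18.5 ± 4.78, G6pc2 at 14.0 ± 10.96, Adam7 at 5.16 ± 6.04 and Cacna1i at 3.10 ± 1.44. Only the step from C2cd4a to Mroh4 was free of overlap between libraries. In ARNoC with testosterone the order was D030018L15Rik at 497 ± 206, C2cd4a at 184 ± 58.6, Adam7 at 176 ± 246, G6pc2 at 37.0 ± 14.99, Mroh4 at 20.6 ± 7.95 and Cacna1i at 16.1 ± 4.56. There, each gene overlapped the next. Percentiles among the genes tested were taken on mean levels not divided by exon length. D030018L15Rik with testosterone stood at percentile 87.2 in WT and 93.9 in ARNoC, and Adam7 at 15.4 and 76.3.

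Genotype was compared within testosterone next, which asks whether the altered receptor gave another level of these genes than the wild type receptor. Adam7 and Cacna1i were higher in ARNoC, by 34.1-fold and 5.19-fold in means, and the other 4 genes did not pass the test. Of all genes tested, 1.69% differed between genotypes with testosterone, 0.681% being higher and 1.01% lower in ARNoC. The choice of the 6 used the ARNoC testosterone libraries too, and both genes would enter it more easily when high there, so these tests are not independent of the choice. Their p-values are adjusted over all 15261 genes.

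Adam7 differed by a log2 of 5.11 (SE 0.91, adjusted p = 0.00703, edgeR's quasi-likelihood test), and all 5 ARNoC libraries, at 140 or more, stood above the highest WT library, at 68.1. Without ARNoC library 3 the difference was 3.69 on the log2 scale, or 12.9-fold, and without WT library 4 it was 6.22, or 74.7-fold. The call was kept whichever library was left out. It was lost with limma-voom (log2 4.96, adjusted p = 0.110), and over all alternatives the adjusted p ran from 0.000805 to 0.110.

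Cacna1i differed by a log2 of 2.38 (SE 0.52, adjusted p = 0.0209, edgeR), and all 5 ARNoC libraries, at 92.5 or more, stood above the highest WT library, at 53.0. The size was steady, but the call was not. It ended without WT testosterone library 1 (log2 2.22, adjusted p = 0.0693), 3 (2.33, 0.0621), 4 (2.40, 0.0517) or 5 (2.24, 0.0517), and with limma-trend (2.40, 0.0555). Over all alternatives the adjusted p ran from 0.000783 to 0.0693. Libraries of the 2 genotypes did not overlap for 3.85% of all genes in either direction and for 1.51% in the direction of these 2 genes.

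G6pc2 was 2.65-fold higher in ARNoC in means, with overlapping libraries (log2 1.36, SE 0.53, adjusted p = 0.238, edgeR). D030018L15Rik gave a log2 of 0.72 (SE 0.29, adjusted p = 0.255), with ARNoC library 3 at 807 below all WT libraries and libraries 1, 2, 4 and 5 above all of them. C2cd4a gave a log2 of -0.60 (SE 0.25, adjusted p = 0.268), the lower value being that of ARNoC. Mroh4 gave 0.17 (SE 0.35, adjusted p = 0.857), and -0.05 without ARNoC testosterone library 3. None of these 4 differences passed the threshold, which does not show that the levels were alike.

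**Figure D2:**
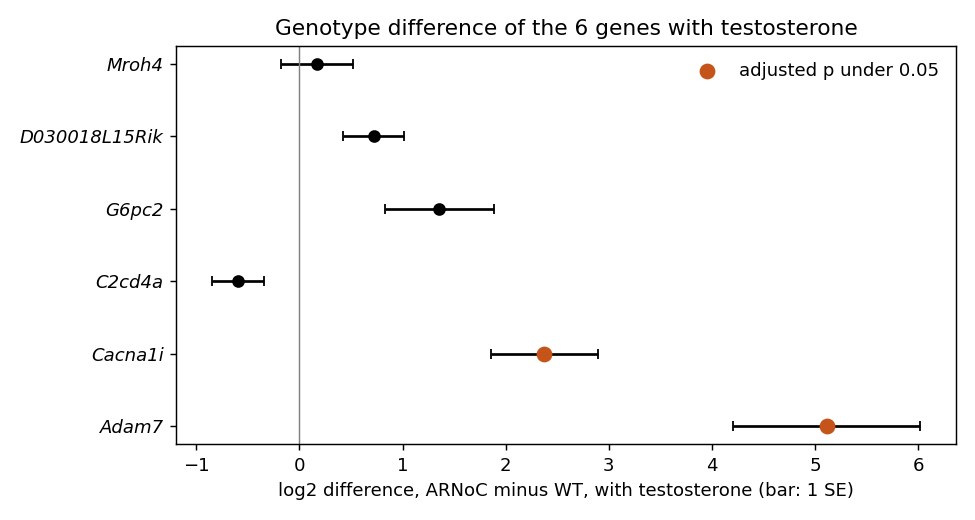
Log2 difference between ARNoC and WT with testosterone for each of the 6 genes (horizontal axis), with bars of 1 SE from edgeR's quasi-likelihood fit; orange points have an adjusted p under 0.05. Adam7 at 5.11 and Cacna1i at 2.38 lie farthest from 0.

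With vehicle 0.321% of all genes differed between genotypes, and none of the 6 passed in edgeR. Mroh4, G6pc2 and Adam7, at or near 0, allow no comparison. C2cd4a and Cacna1i were at 4.62 and 2.04 normalized counts in ARNoC against 7.25 and 6.90 in WT (adjusted p = 0.829 and 0.669). D030018L15Rik stood at 12.1 ± 8.33 normalized counts in WT and 60.4 ± 29.0 in ARNoC. The ratio of means was 4.98, and the lowest ARNoC library, at 30.2, lay above the highest WT library, at 25.01. Among all genes, 1.76% showed no overlap of these groups. The log2 difference of 2.27 (SE 0.49) had an adjusted p of 0.0540 in edgeR, just above the threshold of 0.05. It passed with total-count scaling (0.0397), DESeq2 (0.000118), limma-trend (0.0149) and no filter (0.0350), and over all alternatives the adjusted p ran from 0.000118 to 0.543, the highest with limma-voom. Leaving out vehicle library 1 (0.0386) or 4 (0.0476) of ARNoC also let it pass, as did leaving out testosterone library 3 of ARNoC (0.00923). The 6 genes were chosen for low vehicle levels, so this difference too is not free of the choice.

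The interaction asks whether the log2 response to testosterone itself differed between genotypes. No gene of the 15261 passed (0% called) in edgeR, with 1306 genes at an unadjusted p under 0.05, while DESeq2 called 29, limma-trend 1 and limma-voom 0. The 6 genes were chosen on the same responses, so the values below are a description and their p-values are not independent of the choice. The Cacna1i response was larger in ARNoC by a log2 of 3.94 (SE 0.93, adjusted p = 0.289, edgeR), and DESeq2 called it (4.03, adjusted p = 0.00630). Over all its alternatives the adjusted p ran from 0.00630 to 0.519, and the sign did not change. The D030018L15Rik response was smaller in ARNoC by a log2 of -1.55 (SE 0.59, adjusted p = 0.486). C2cd4a gave 0.08 (SE 0.45, adjusted p = 0.971), a value that took either sign among the alternatives. For Mroh4, G6pc2 and Adam7 the WT vehicle group at 0 means that the counts do not fix the size of the interaction. The fit gave a log2 of -2.11 (SE 1.20) for Mroh4 and -1.28 (SE 1.20) for G6pc2. For Adam7 it gave 3.25 with an SE of 36.7, which is too wide to be read.

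The cell types that these genes are known from were then sought in the same libraries. Of the 20 epididymis markers, 13 were at 0 in all 20 libraries, among them Lcn5, Lcn8, Cst11 and Spint4. Their summed level ranged from 132 to 166 normalized counts in ARNoC with testosterone and from 168 to 216 in WT with testosterone, and nearly all of it was Adam28, which was counted in both vehicle groups as well. Gpx5 was the next of them, at 11.2 ± 4.79 in WT and 5.51 ± 3.06 in ARNoC with testosterone. Without Adam28 the sum was 1.10 to 5.17 with vehicle and 6.16 to 18.8 with testosterone in WT, and 0.76 to 3.59 and 1.19 to 12.9 in ARNoC. It was higher in every WT testosterone library than in any WT vehicle library, while the ARNoC groups overlapped. WT testosterone library 4, the highest of its group for Adam7, was also the highest for this sum, at 18.8. WT testosterone library 5, the lowest for Adam7, came next at 16.6. In ARNoC with testosterone, library 3, the highest for Adam7, was at 11.7, below library 2 at 12.9. Library 5 of that group, its lowest for Adam7, was the lowest for the sum too, at 1.19. With Adam28 included, ARNoC testosterone library 3 was the lowest of its group, at 132. The 9 seminal vesicle markers summed to at most 51.9 in any library and to 4.68 in ARNoC library 3, the highest of its group. The part of other tissues in the Adam7 levels was not tested.

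For G6pc2 and C2cd4a, 7 of 11 pancreatic islet markers were at 0 in every library and the summed level was at most 19.0. For Cacna1i, the summed level of 8 neuron markers ranged from 70.7 to 162 in WT with testosterone and from 104 to 185 in ARNoC with testosterone, with none at 0 throughout. With vehicle the sum ranged from 56.3 to 97.1 in WT and from 36.1 to 150 in ARNoC. Its group median went from 81.2 to 87.8 with testosterone in WT and from 81.3 to 165 in ARNoC. Of the 3 markers that were tested, 1 rose in each genotype, and the median log2 changes were 0.31 in WT and -0.0036 in ARNoC. The one that rose was Rbfox3, a neuronal splicing factor, which went from 38.9 ± 16.5 to 83.3 ± 43.2 normalized counts in WT and from 42.5 ± 19.1 to 119 ± 20.1 in ARNoC. Syt1, a synaptic vesicle protein gene, gave log2 changes of 0.31 and -0.0036, and Stmn2, a gene of growing axons, gave -0.65 and -0.24. The 8 neuroendocrine markers summed to between 23.0 and 61.8 over all libraries. The part of neuronal cells in the Cacna1i levels was not tested. ARNoC testosterone library 3 also had the highest summed stromal, basal, leukocyte and neuroendocrine markers of its group, at 47885, 2045, 843 and 46.8 normalized counts, and their part in its values was not tested.

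Relatives of the 6 genes were examined in the same fit. Of the C2cd4 family, C2cd4b rose with C2cd4a. It lies 72.9 kb away on chromosome 9 and went from 4.42 ± 1.57 to 65.4 ± 14.7 normalized counts in WT (log2 3.84, SE 0.44, adjusted p = 1.02e-06, edgeR). In ARNoC it went from 2.43 ± 2.09 to 48.7 ± 21.2 (log2 4.27, SE 0.47, adjusted p = 5.77e-07). C2cd4c stayed at a mean of 2.45 or less in every group. The lists of relatives were drawn up with earlier results known, so their counts are descriptions beside the shares over all genes.

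The glucose-6-phosphate list covered 21 tested genes besides G6pc2: 5 rose, 4 fell and 12 did not pass in WT, with a median log2 change of -0.05 against -0.02 over all genes. In ARNoC 6 rose, 3 fell and 12 did not pass, with a median of 0.01 against -0.01. Slc37a4, the transporter that carries glucose-6-phosphate into the endoplasmic reticulum to the phosphatase, rose most. It went from 250 ± 23.9 to 928 ± 126 normalized counts in WT (log2 1.90, SE 0.11, adjusted p = 6.30e-11, edgeR) and from 285 ± 34.0 to 1156 ± 136 in ARNoC (log2 2.02, SE 0.11, adjusted p = 2.21e-11). H6pd, which oxidises glucose-6-phosphate in the same compartment, fell from 2338 ± 172 to 1062 ± 54.7 in WT and from 2492 ± 244 to 1283 ± 167 in ARNoC. Hk2, a hexokinase that makes glucose-6-phosphate in the cytosol, rose by 0.72 and 0.76 on the log2 scale, and the related transporter gene Slc37a2 fell by 1.35 and 1.20. The leukocyte markers fell as well, 4 of 5 tested in each genotype, with median log2 changes of -1.68 in WT and -1.14 in ARNoC, and their part in the changes of this list was not tested. G6pc3, the catalytic subunit found in most tissues, did not pass (log2 0.09 in WT and -0.01 in ARNoC), and G6pc, that of liver, was at a mean of 3.84 or less. Total-count scaling shifted the median log2 change over all genes by -0.42 in WT and by -0.35 in ARNoC. The WT counts then became 2 up and 10 down, and the ARNoC counts 2 up and 9 down. Slc37a4 and Hk2 were called higher, and H6pd and Slc37a2 lower, under that scaling too.

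**Figure D3:**
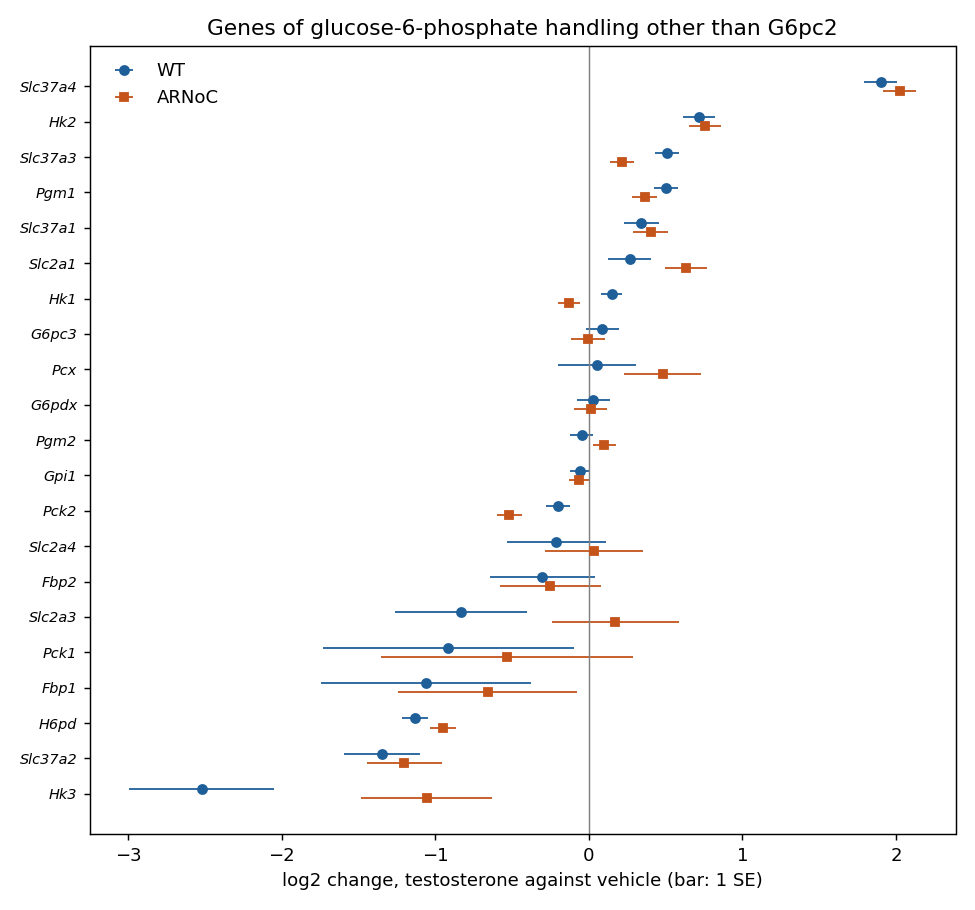
Log2 change with testosterone for the 21 tested genes of glucose-6-phosphate handling other than G6pc2, in WT (circles) and ARNoC (squares), with bars of 1 SE from edgeR's quasi-likelihood fit. Slc37a4 lies highest, at 1.90 and 2.02, and Hk3, a hexokinase gene, lowest in WT, at -2.52.

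Of 12 tested voltage-gated calcium channel genes besides Cacna1i, 2 rose and 1 fell in WT, and 1 rose and 2 fell in ARNoC. Over all genes 20.4% rose and 18.8% fell in WT, and 19.4% rose and 16.8% fell in ARNoC. The median log2 changes of the 12 were 0.04 in WT and 0.08 in ARNoC, against -0.02 and -0.01 over all genes. The auxiliary subunit genes Cacnb3 (log2 0.56) and Cacnb2 (0.83) were the ones that rose in WT, and only Cacnb3 (0.33) did in ARNoC; with total-count scaling none was called higher, and Cacnb3 in ARNoC turned to -0.02. Cacna1a, the pore of the P/Q-type channel, fell by 1.03 in WT and 0.70 in ARNoC. The other T-type pore genes, Cacna1g and Cacna1h, did not pass in either genotype, with log2 changes of 0.14 to 0.37. Between genotypes with testosterone, Cacnb1 alone of these 12 differed, being lower in ARNoC (log2 -0.54, SE 0.13, adjusted p = 0.0420, edgeR). That call was lost with total-count scaling (adjusted p = 0.0702) and when any of 11 of the 20 libraries was left out.

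Of 34 genes of the Adam list, 11 were at 0 in all libraries and 15 besides Adam7 were tested. In WT 3 rose and 5 fell, and in ARNoC 2 rose and 3 fell. Over all genes 20.4% rose and 18.8% fell in WT, and 19.4% rose and 16.8% fell in ARNoC. Adam11 and Adam22 rose in both genotypes, Adam22 from 62.8 ± 17.7 to 124 ± 37.0 in WT and from 91.4 ± 20.1 to 161 ± 32.7 in ARNoC. Adam28 was called higher in WT alone (log2 0.46), a call treated below. Adam8 fell from 74.9 ± 42.2 to 23.1 ± 6.80 in WT and from 55.2 ± 19.3 to 28.9 ± 9.02 in ARNoC. Adam17 fell from 626 ± 72.5 to 453 ± 13.6 and from 546 ± 46.6 to 462 ± 55.8. In ARNoC these 2 falls were lost without any 1 of 9 libraries for Adam8 and of 8 for Adam17. Adam12, a protease of stroma and muscle, fell in WT from 61.0 ± 52.1 to 6.98 ± 6.80. The stromal markers moved with it there, 3 of 9 being lower and 0 higher with a median log2 change of -1.02, and in ARNoC 1 was lower and 3 higher with a median of 0.13. Their part in the fall was not tested. None of the 15 differed between genotypes with testosterone. With total-count scaling 1 was higher and 9 lower in WT, and 0 were higher and 4 lower in ARNoC. Over all 15261 genes that scaling called 1099 higher and 9120 lower in WT, and 1178 higher and 7548 lower in ARNoC. Of the Mroh list 2 genes besides Mroh4 were tested, and Mroh1 rose in WT (log2 0.41, adjusted p = 0.000225) but not under total-count scaling. Mroh2b was at 0 in all vehicle libraries and at 2.05 ± 2.23 and 4.94 ± 2.37 with testosterone, too low to be tested.

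The genes beside the 6 on their chromosomes were followed as well, taking up to 3 tested genes on each side whose start lay within 500 kb. Of these 27 neighbours 13 rose, 0 fell and 14 did not pass in WT, and 9 rose, 2 fell and 16 did not pass in ARNoC. Their median log2 changes were 0.40 and 0.23. Of all genes, 20.4% were called higher and 18.8% lower in WT in the same fit, and 19.4% and 16.8% in ARNoC. With total-count scaling 8 neighbours rose and 7 fell in WT, and 5 rose and 6 fell in ARNoC. That scaling called 1099 of all 15261 genes higher and 9120 lower in WT, and 1178 higher and 7548 lower in ARNoC. The neighbours are few.

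Spc25, a kinetochore gene used in cell division, starts 4.88 kb from G6pc2 on the opposite strand. It went from 47.3 ± 9.75 to 133 ± 28.02 normalized counts in WT (log2 1.49, SE 0.20) and from 46.3 ± 13.7 to 243 ± 22.5 in ARNoC (log2 2.39, SE 0.20). It was the 1 neighbour that differed between genotypes with testosterone (log2 0.87, SE 0.19, adjusted p = 0.0181, edgeR). That call ended without WT testosterone library 1 (adjusted p = 0.0572) or 4 (0.0552). Beside C2cd4a, Vps13c at 8.07 kb rose by 0.71 and 0.46 and Tln2 at 273 kb by 1.08 and 0.54, though neither was called in ARNoC with total-count scaling.

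Arc, an immediate early gene 36.2 kb from Mroh4, rose by a log2 of 1.13 in WT and 2.30 in ARNoC. The WT call was lost with total-count scaling (0.69, adjusted p = 0.0650). Psca, a prostate stem cell antigen gene at 78.5 kb, rose by 5.23 in WT (SE 1.44, adjusted p = 0.00700). In ARNoC its log2 change of 0.50 did not pass. ARNoC vehicle library 5 held 468 normalized counts of it, and without that library the change was 4.97 (adjusted p = 0.000422). Around D030018L15Rik, the membrane protein gene Ano6 rose by 0.93 and 0.89 and the chromatin remodelling gene Arid2 by 0.78 and 0.63. Of the neighbours of Cacna1i, Atf4, a stress-response transcription factor gene, rose by 0.40 and 0.41. Beside Adam7, Adam28 gave 0.46 in WT, with an adjusted p of 0.0416 in edgeR, and 0.03 in ARNoC, a value that changed sign among the alternatives. The WT call was lost when any of 14 of the 20 libraries was left out, with no filter (adjusted p = 0.0864) and with total-count scaling (log2 0.044, adjusted p = 0.825). Adamdec1, a gene of the same family, gave -0.47 in ARNoC with an adjusted p of 0.0383 in edgeR. That call was lost with DESeq2 (0.0525), with no filter (0.0669) and without any 1 of 6 libraries (up to 0.0868).

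**Figure D4:**
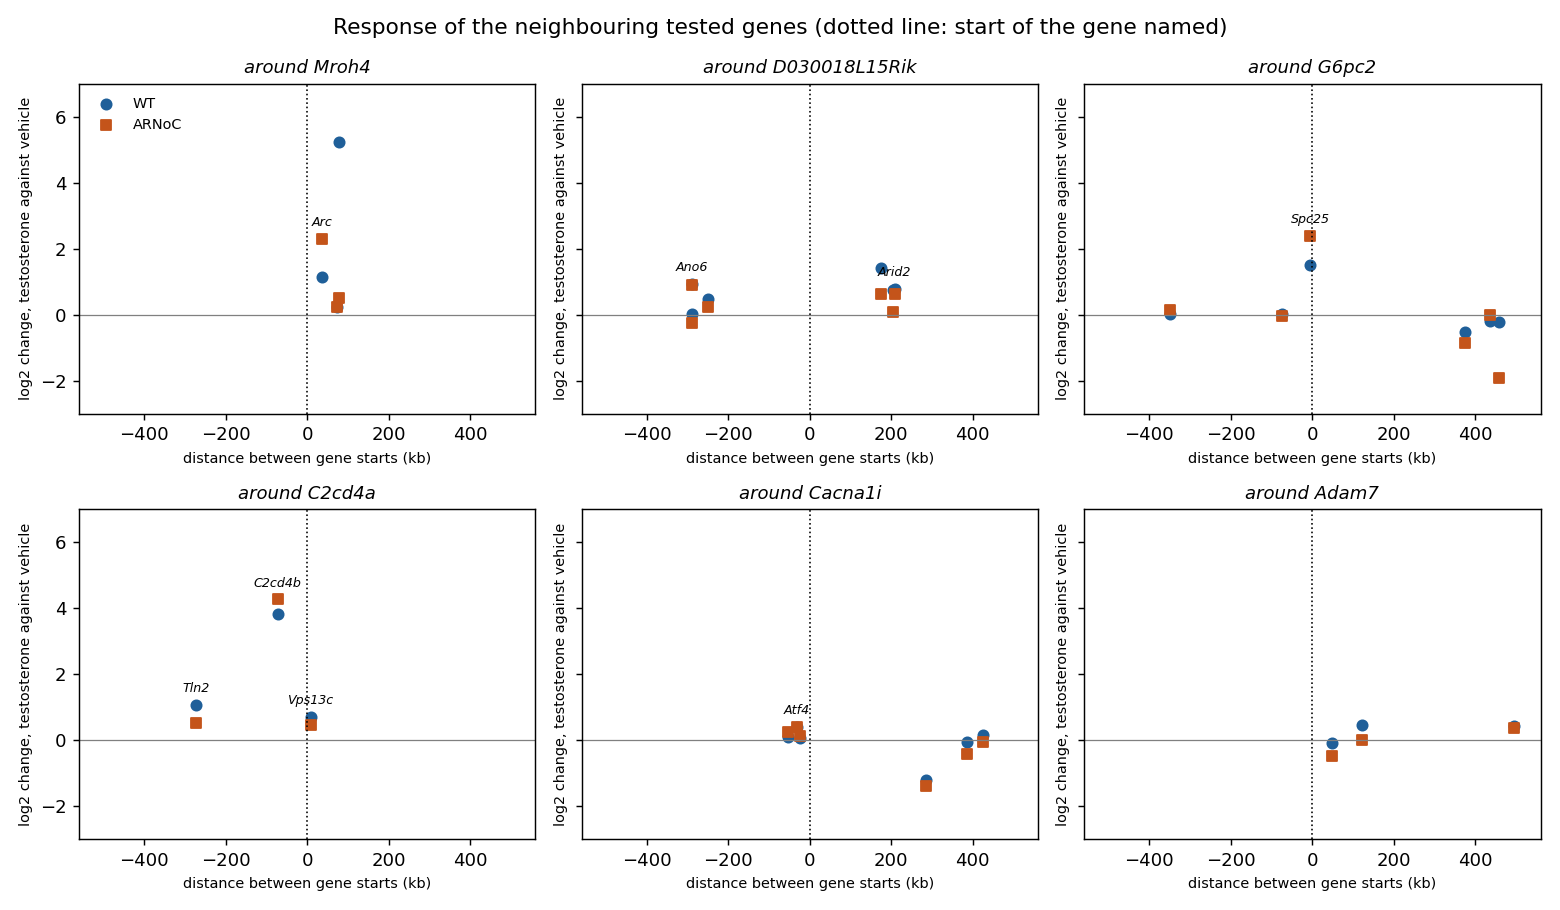
Log2 change with testosterone of the neighbouring tested genes in WT (circles) and ARNoC (squares) against the distance between gene starts in kb, in a panel for each of the 6 genes; names mark genes called in both genotypes. Among the genes named, C2cd4b moved farthest, at 3.84 and 4.27, while Psca, called in WT alone, reached 5.23 there.

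Some genes followed the 6 across the 20 libraries. Likeness was the root mean square difference of log2(normalized count + 1), each gene centred on its own mean. Closest to Mroh4 was Abo, the blood-group glycosyltransferase gene, at a difference of 0.43, followed by Rapgef4os3 at 0.69 and C2cd4a at 0.86. Abo was also closest to C2cd4a, at 0.74, before Kel at 0.79 and Rapgef4os3 at 0.79. Abo itself was abundant, at 457 normalized counts in WT with vehicle and 31070 with testosterone. Closest to D030018L15Rik were Chst13 at 0.96, Abo at 0.997 and Gm14332 at 1.11.

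G6pc2 lay closest to secretory genes, the defensin genes Defb10 at 0.72 and Defb50 at 0.80 and the seminal protein gene Msmb at 0.81. Cacna1i and Adam7, the genes higher in ARNoC, lay closest to the same gene, the protease inhibitor gene Mug1, at 1.04 and 1.76. Mug1 went from 193 to 1665 normalized counts in WT and from 169 to 5994 in ARNoC. Apof at 1.10 and Gfral at 1.18 followed for Cacna1i, and Cacna1i at 1.84 and G6pc2 at 1.92 for Adam7. All of these share the 4 groups, so likeness mostly reflects the group means.

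Deviations within the testosterone groups, a measure the choice did not use, were compared between the 6 genes. Over 10 libraries, with group means removed, 0 of 15 pairs had an adjusted p under 0.05 by exact permutation within groups, two-sided, and 3 had an unadjusted p under 0.05. The lowest adjusted p was 0.156 for Pearson's r and 0.0948 for Spearman's rho. D030018L15Rik and Adam7 had r = -0.72 and rho = -0.75 (exact permutation p = 0.0211 and 0.0322, unadjusted). D030018L15Rik and Cacna1i had r = -0.61 and rho = -0.84 (exact permutation p = 0.0315 and 0.00632, unadjusted). No pair passed when the 2 libraries farthest from the median were left out, and 2 of the 15 changed sign.

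ARNoC testosterone library 3 was the highest of its group for Adam7 at 2649, Cacna1i at 203 and Mroh4 at 130 normalized counts, and the lowest for D030018L15Rik at 807 and G6pc2 at 38.6. WT testosterone library 5 was the highest of its group for G6pc2, at 61.6, and the lowest for Adam7 at 1.66, Mroh4 at 52.4 and C2cd4a at 312. The genes whose deviations followed those of each gene most closely over the 10 testosterone libraries are a description from a search of all tested genes. They were Pcyox1l (r = 0.93) for Mroh4, Calcoco1 (0.97) for D030018L15Rik, Chn2 (0.96) for G6pc2, Akt1 (0.94) for C2cd4a, Zfp260 (0.97) for Cacna1i and Ptprg (0.96) for Adam7.

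**Figure D5:**
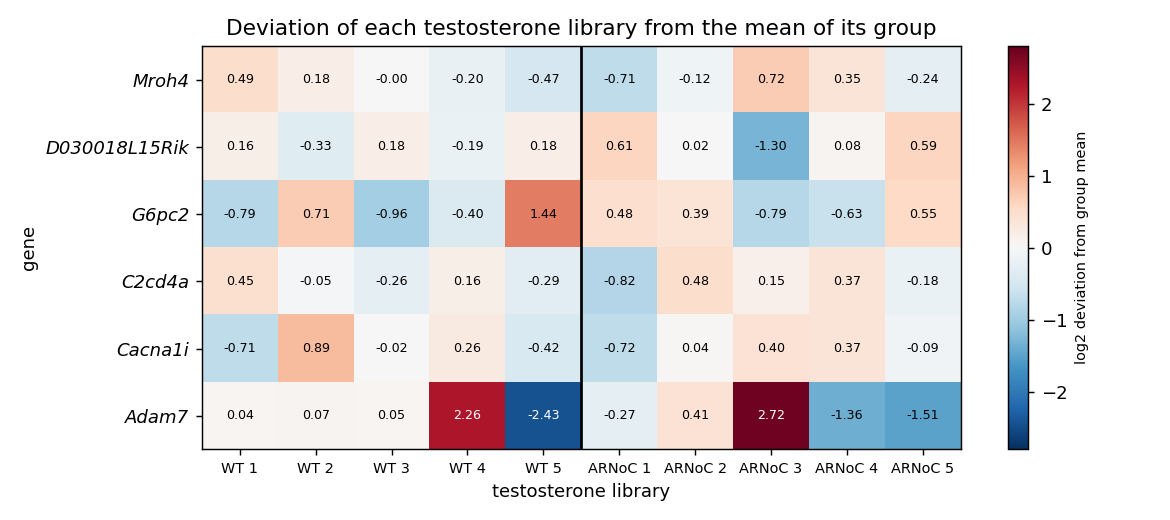
Deviation of each testosterone library (columns) from the mean of its group in log2(normalized count + 1) for each of the 6 genes (rows), with colour and number giving the deviation. ARNoC library 3 is farthest above its group for Adam7, at 2.72, and farthest below for D030018L15Rik, at -1.30.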

How the data were processed

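Bulk RNA of ventral prostate was sequenced in 20 libraries, 5 per group. The deposited counts per gene were made by the authors with HISAT2 and HTSeq on mm10, per the submitters' processing notes; their settings and annotation were not given in any source used here. The deposited signal values are counts divided by size factors, and the deposited ratio values are those factors; 100% of their products were whole within 1e-06. 0 sample columns were left over. Libraries are numbered in accession order, which pairs nothing.

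The counts were fitted with edgeR 4.0.16 in R 4.3.3 (trimmed mean scaling, 1 mean per group, quasi-likelihood F-test, Benjamini-Hochberg at 0.05). The filter was 10 normalized counts in 5 libraries. SE is the log2 value over the root of F. The test was checked on simulated counts with changes placed only in well counted genes. That check does not cover genes near absent in a group. Alternatives were DESeq2 1.42.0, limma 3.58.1, other scalings and filters, a fit of only the groups compared, and each library left out in turn. A group at 0 was given a floor of 3 counts for its fold; intervals are 95% exact ones. The members, the gene lists and the limits of 10 and 50 were chosen with earlier results of these data known. Named genes were the 6, up to 4 genes per list with the smallest adjusted p, 3 neighbours per side, the 3 closest in likeness and in deviation, and the check gene Fkbp5 (a gene that the rule takes is not reported here); G6pc, G6pc3, the other T-type channel genes, Mroh2b, C2cd4c and the neuron markers were named after their values were seen.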

Additional observations from a re-analysis of the deposited data

Results flagged for a closer look

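Of 21 sets of 5 libraries of the 6 genes that were not all at 0, 5 held a library far from the others. The measure was the gap to the nearest library over the range. Its rate of about 1 in 20 by chance holds for normally spread values only. Skewed counts and groups tied at 0 are not such values, so the 5 are not set against chance. Adam7 was at 2649 normalized counts in ARNoC testosterone library 3, where the other 4 libraries lay between 140 and 534. Adam7 was at 68.1 in WT testosterone library 4, where the others lay between 1.66 and 14.1. The other 3 are single vehicle libraries with a few counts in a group otherwise at 0. They are Mroh4 in ARNoC vehicle library 2, at 1.90 normalized counts, G6pc2 in ARNoC vehicle library 1, at 2.88, and Adam7 in that same library, at 1.44.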

How the results depend on the processing

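Total-count scaling, which lowers the median testosterone response, moved the calls in WT from 5985 genes (3114 up, 2871 down) to 10219 (1099 up, 9120 down) and in ARNoC from 5527 (2962 up, 2565 down) to 8726 (1178 up, 7548 down). Without single libraries the counts ran from 5292 to 6231 and from 4864 to 5740. Genes called between genotypes with vehicle numbered 49, against 137 with DESeq2, 19 with the compared groups alone, and 29 to 76 without single libraries. With testosterone 258 genes (104 up, 154 down) became 437 (336 up, 101 down) with total-count scaling, 498 with DESeq2, and 154 to 286 without single libraries. The interaction called 0 genes, against 2 with total-count scaling, 29 with DESeq2, 1 with limma-trend, 2 with no filter, and 0 to 2 without single libraries.

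Values that changed sign, none of them called in the changed sign, were these on the log2 scale, and the cause was not tested. Adam28 in ARNoC (0.03) was -0.31 with total-count scaling, -0.013 with no filter, -0.0063 with the compared groups alone, and -0.11 to 0.25 without single libraries. Cacnb3 in ARNoC was -0.022 with total-count scaling. Cacnb1 in WT ran from -0.18 to 0.00076 without single libraries. Mroh4 between genotypes with testosterone ran from -0.052 to 0.31. The C2cd4a interaction was -0.23 with limma-trend, -0.086 with limma-voom and -0.16 to 0.34 without single libraries.

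No paired analysis was possible because the labels carry library identifiers and no replicate numbers shared between groups. Genes at or near 0 with vehicle limit every fold to its counting floor, and 5 libraries per group limit the rest.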
